A study of Mus musculus with 5 samples.

Results

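Long-chain fatty acids enter mitochondria through the carnitine shuttle and are then shortened by beta-oxidation. The 10 genes described here encode the 3 shuttle proteins (Cpt1a, Slc25a20, Cpt2) and 7 proteins of the oxidation spiral and its electron outlet (Acadvl, Acadl, Acadm, Hadha, Hadhb, Acaa2, Etfdh). They were chosen by symbol, for their place in the pathway, with earlier results of these data known. They are 10 of the 23337 genes listed in each count file. All 10 had a row in every file and passed the filter on low counts. The transcriptomes are those of OT-I CD8+ T cells, whose transgenic receptor recognises an ovalbumin peptide, recovered from tumors. The groups were anti-PD-L1, an antibody (clone 10F.9G2) that blocks a ligand of PD-1, a receptor that restrains T cells (2 libraries), and Control IgG, the anti-KLH rat IgG2b (3 libraries). All donor cells came from C57BL/6J CD45.1 OT-I mice of 6 to 12 weeks, were activated on plates with antibodies to CD3 and CD28, kept in interleukin-2 until day 5 to 6, and injected into mice carrying the ovalbumin-expressing melanoma B16-OVA. Each mouse received 200 µg of antibody 3 days and again 6 days after the transfer, and was sacrificed at day 8 or earlier if its tumor grew to 1.2 cm. Each library held live CD8+ CD45.1+ cells from several mice of 1 group, pooled before sorting, and nothing in the labels ties a library to a mouse or a day, so p-values measure the spread between such pools.

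CPT1A, on the outer mitochondrial membrane, joins long-chain acyl groups to carnitine and is the controlled step of the route, since malonyl-CoA inhibits it. The translocase SLC25A20 exchanges acylcarnitine for carnitine across the inner membrane, and CPT2 restores acyl-CoA on the matrix side. Acyl-CoA dehydrogenases, the trifunctional protein and thiolases then remove acetyl-CoA in repeated rounds. Fatty acid oxidation is known for its use by memory and quiescent CD8+ T cells, while effector cells rely more on glycolysis, and engagement of PD-1 has been reported to raise CPT1A in human T cells in culture.

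The promoters of the 3 shuttle genes are shown because of their values. Cpt1a had the largest fold change of the 10 genes. Slc25a20 and Cpt2 were the 2 of the 10 whose groups did not overlap, as for 17.3% of all tested genes. The stretch before Hadha is shown because Hadha and Hadhb, the subunits of 1 enzyme, start from it in opposite directions. Sequences are RefSeq's on GRCm38.p6, the 250 bases before each RefSeq start, read 5′ to 3′ on the gene's strand. Capitals mark GGGCGG and CCAAT, on either strand, in Cpt1a, and CCGGAAGT, the core of sites for ETS-family factors, on either strand, in Slc25a20 and Cpt2. GGGCGG also occurs in the stretches of Slc25a20, Cpt2 and Hadha, where it is not marked as such. In Hadha they mark the 228 bases that also lie in the 250 bases before the Hadhb start. In GENCODE vM21 on GRCm38, Cpt1a spans chromosome 19 from 3322334 to 3385733, Slc25a20 chromosome 9 from 108662088 to 108684641, Cpt2 chromosome 4 from 107903981 to 107923610, and Hadha chromosome 5 from 30118304 to 30155162. GENCODE thus starts each of these genes farther upstream than RefSeq, and part or all of each stretch lies inside its annotated gene.
Cpt1a, chr19:3323051-3323300, plus strand: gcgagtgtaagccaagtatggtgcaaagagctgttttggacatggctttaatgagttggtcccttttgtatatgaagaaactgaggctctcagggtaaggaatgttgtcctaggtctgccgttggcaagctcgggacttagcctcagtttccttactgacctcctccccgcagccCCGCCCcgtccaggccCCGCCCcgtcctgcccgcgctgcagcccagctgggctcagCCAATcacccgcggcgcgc
Slc25a20, chr9:108661886-108662135, plus strand: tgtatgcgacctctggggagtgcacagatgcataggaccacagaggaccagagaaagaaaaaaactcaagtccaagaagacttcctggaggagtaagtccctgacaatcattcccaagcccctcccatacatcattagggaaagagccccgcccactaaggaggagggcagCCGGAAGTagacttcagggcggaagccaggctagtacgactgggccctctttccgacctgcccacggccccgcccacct
Cpt2, chr4:107923590-107923839, minus strand: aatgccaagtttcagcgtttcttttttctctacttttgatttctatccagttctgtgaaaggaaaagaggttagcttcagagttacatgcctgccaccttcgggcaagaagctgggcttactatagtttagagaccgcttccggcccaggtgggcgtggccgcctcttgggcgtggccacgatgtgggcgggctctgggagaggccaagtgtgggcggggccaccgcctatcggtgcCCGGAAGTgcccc
Hadha, chr5:30154981-30155230, minus strand: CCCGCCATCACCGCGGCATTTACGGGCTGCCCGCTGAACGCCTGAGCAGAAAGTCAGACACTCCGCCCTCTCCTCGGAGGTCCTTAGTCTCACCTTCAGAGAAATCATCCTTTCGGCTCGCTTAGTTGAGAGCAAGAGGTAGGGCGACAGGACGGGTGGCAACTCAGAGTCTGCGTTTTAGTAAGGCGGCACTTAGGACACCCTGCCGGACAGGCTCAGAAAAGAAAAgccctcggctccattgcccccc

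RefSeq windows of 300 bases, which add 50 bases after the start, matched 9 of the 10 genes. CCGGAAGT was found in the windows of Slc25a20, from base -79, and Cpt2, from base -13, where base -1 is the last before the start. It was found in 3.89% of all 32851 such windows. GCATGCGC, part of the consensus of nuclear respiratory factor 1 (NRF1), lay in the windows of Etfdh and Acadm and in 2.71% of all windows. GGGCGG, the GC box, lay in 7 of the 9 and in 35.7% of all, and in Cpt2 and Slc25a20 it did not overlap CCGGAAGT. CCAAT lay in 2 of the 9, those of Etfdh and Cpt1a, and in 37.4% of all. The 9 windows had a GC content of 50.7% to 70.3%, against a median of 52.7% over all windows. AGGTCANAGGTCA, a direct repeat bound by PPAR with RXR receptors, TCAAGGTCA, bound by estrogen-related receptors, and CACGTG, the E-box, were in none of the 9 and in 0.0396%, 0.423% and 7.15% of all windows. The RefSeq starts of Hadha and Hadhb on chromosome 5 are 272 bases apart. Each search covered both strands, and a match of letters is a description of these windows only.

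The libraries held 9985943 to 12830485 counts assigned to genes. Anti-PD-L1 replicate 1 and Control IgG replicate 1 had 11977 and 11696 genes with a count, against 13564 in anti-PD-L1 replicate 2 and 13673 and 13801 in Control IgG replicates 2 and 3. In this number these 2 libraries stand apart. They were not alike otherwise, since gene by gene they had the highest chi-square per degree of freedom of any pair, 92.3. The summed CPM (a gene's counts scaled to a common library total, here with TMM composition factors) of 9 T cell markers, led by Cd8a and Ptprc, was 9030 to 11393 in anti-PD-L1 libraries and 8264 to 10518 in Control IgG libraries. Markers of other cells summed to less than the T cell markers in every library, but to as much as 292 CPM. Melanoma markers, led by Pmel and Dct, summed to 44.6 and 104 CPM in anti-PD-L1 libraries and 4.47, 292 and 93.0 CPM in Control IgG libraries. Monocyte and macrophage markers, led by Lyz2 and C1qb, summed to 85.4 and 119.9 CPM in anti-PD-L1 libraries and 213, 133 and 75.7 CPM in Control IgG libraries. Natural killer markers summed to 220.1 CPM in anti-PD-L1 replicate 1 and 66.5 to 93.3 CPM in the other libraries. Nearly all of this came from Klre1, with Klrb1c second, while Klra4 and Klra8 were at 0. Dendritic cell markers (Itgax, Xcr1) summed to 35.7 and 44.3 CPM in anti-PD-L1 libraries and 16.7 to 30.1 CPM in Control IgG libraries, and endothelial markers (Pecam1, Vwf) to 30.6 and 45.7 CPM in anti-PD-L1 libraries and 36.7 to 54.4 CPM in Control IgG libraries, with Cdh5 and Kdr at 0. Erythroid markers (Beta-s, Alas2) reached 20.3 CPM and B cell (Cd79b, Cd79a), CD4+ T cell (Foxp3, Cd4), neutrophil (Csf3r, S100a8) and fibroblast (Col1a1, Col1a2) markers at most 6.13 CPM in any library, while the 4 adipocyte markers, Adipoq and Plin1 included, were at 0. Their part in the results on fatty acid oxidation was not tested, and in sorted pools a change of cell mixture and of RNA per cell cannot be told apart.

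Anti-PD-L1 against Control IgG asked how blockade of PD-L1 altered the cells. None of the 10 genes passed an adjusted p of 0.05 in edgeR's quasi-likelihood test, where 0% of the 11299 tested genes were called and each of the 10 had an adjusted p of 0.9999. At an unadjusted p under 0.05 stood 0 of the 10, against 2.13% of all tested genes. DESeq2 called none of the 10 and 0.0354% of all genes as higher. Of the 10 genes, 6 had a log2 fold change above 0 and 4 below, with Hadha above 0 under RLE size factors and Acadvl below 0 under library totals, against 48.1% above 0 over all tested genes. The median log2 fold change of the 10 was 0.035, against -0.015 over all. The summed level of the 10 genes was 1444 and 1000.0 CPM in anti-PD-L1 libraries and 1196, 968 and 1110.2 CPM in Control IgG libraries, so the groups overlapped.

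**Figure D1:**
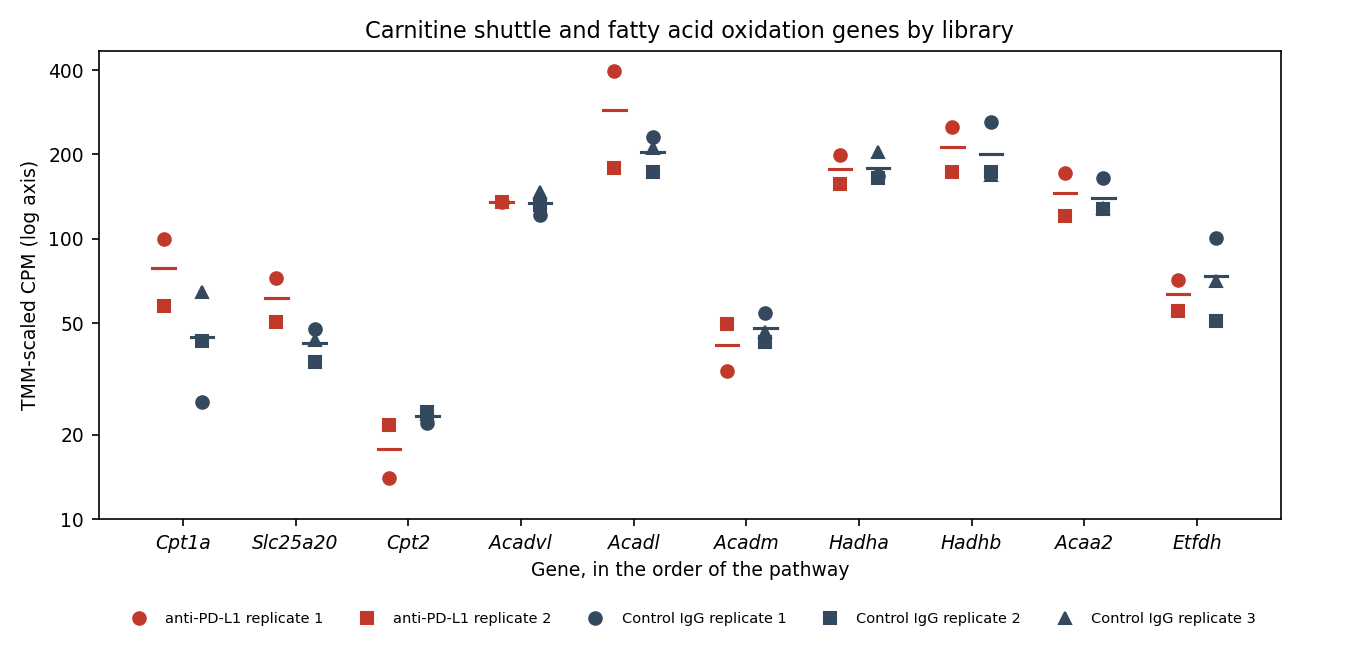
Level of each gene in each library as TMM-scaled CPM on a log axis, with anti-PD-L1 in red left of Control IgG in dark blue, symbols for replicates and bars for group means. The anti-PD-L1 points lie above all Control IgG points only for Slc25a20 and below them only for Cpt2.

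None of the 3 carnitine shuttle genes passed the test. Cpt1a, the controlled step, had 99.5 and 57.9 CPM in anti-PD-L1 libraries, against 26.2, 43.1 and 64.5 CPM in Control IgG libraries. Anti-PD-L1 replicate 1 was the highest of the 5 libraries, replicate 2 lay within the Control IgG range, and the Control IgG libraries alone spanned 2.46-fold. The log2 fold change was 0.82 ± 0.41 (SE, n = 2 against 3), with a 95% confidence interval of -0.12 to 1.75 and an unadjusted p of 0.0789 in edgeR's model over all genes, the smallest of the 10 and rank 490 of 11299. Without anti-PD-L1 replicate 1 it was 0.37, without Control IgG replicate 3 it was 1.18, and without both libraries numbered 1 it was 0.088.

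Slc25a20, the translocase, had 72.6 and 50.4 CPM in anti-PD-L1 libraries, against 47.7, 36.5 and 43.6 CPM in Control IgG libraries. Every Control IgG library was lower than both anti-PD-L1 libraries, which was so for 7.74% of all tested genes, and replicate 2 stood just past the highest control. Its log2 fold change was 0.53 ± 0.28 (SE, n = 2 against 3), with an interval of -0.11 to 1.17 and an unadjusted edgeR p of 0.0948 from the model over all genes. Of all tested genes 6.15% had an unadjusted p under 0.1, as did Cpt1a and Slc25a20 among the 10. Leaving out anti-PD-L1 replicate 1 gave a log2 fold change of 0.24 for Slc25a20, and leaving out replicate 2 gave 0.79.

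Cpt2, which acts last in the shuttle, had 14.0 and 21.7 CPM in anti-PD-L1 libraries, against 22.1, 24.1 and 23.7 CPM in Control IgG libraries. Both anti-PD-L1 libraries lay below every Control IgG library, as for 9.58% of all tested genes, and replicate 2 missed the lowest control by less than 1 CPM. The 3 controls spanned only 1.09-fold, the narrowest span among the 10 genes. Its log2 fold change was -0.38 ± 0.33 (SE, n = 2 against 3), with an interval of -1.15 to 0.38. Leaving out anti-PD-L1 replicate 1 gave -0.10, and leaving out replicate 2 gave -0.71.

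Since ratios of counts within a library do not depend on how libraries are scaled, they were also read, chosen after the levels had been seen and so without a test. There were 5.19 and 2.33 Slc25a20 counts for each Cpt2 count in anti-PD-L1 libraries, against 2.16, 1.52 and 1.84 in Control IgG libraries. Anti-PD-L1 replicate 2 was again close to the highest control. For Cpt1a over Cpt2 the ratio was 7.11 and 2.67 in anti-PD-L1 libraries and 1.19, 1.79 and 2.72 in Control IgG libraries, so replicate 2 was inside the control range. Cpt1a over Slc25a20 gave 1.37 and 1.15 in anti-PD-L1 libraries and 0.549, 1.18 and 1.48 in Control IgG libraries, with full overlap.

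**Figure D2:**
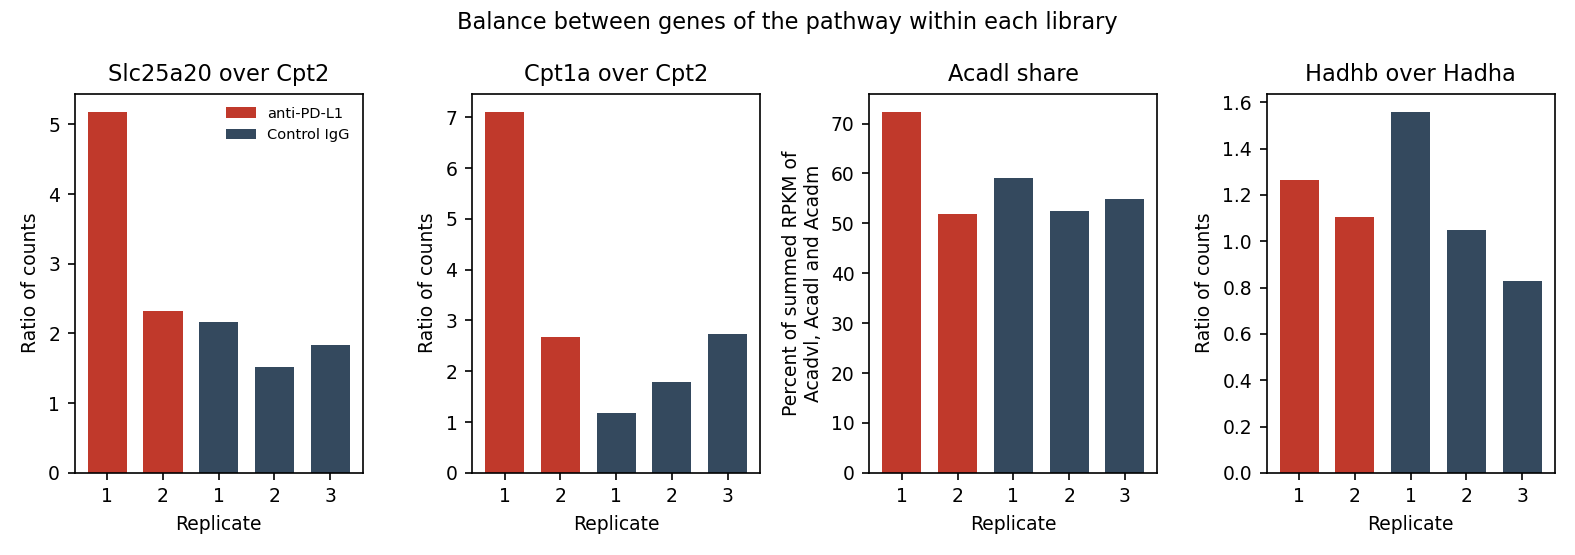
From left to right, ratio of counts of Slc25a20 over Cpt2 and of Cpt1a over Cpt2, share of Acadl in the summed RPKM of Acadvl, Acadl and Acadm, and ratio of counts of Hadhb over Hadha, one bar per library, with anti-PD-L1 in red left of Control IgG in dark blue. Anti-PD-L1 replicate 1 has the highest bar in the first 3 panels (5.19, 7.11 and 72.4%), and Control IgG replicate 1 in the last (1.56).

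Acyl-CoA dehydrogenases carry out the first step of each round and differ in the chain length they prefer. Acadl, the long-chain enzyme, had 396 and 179 CPM in anti-PD-L1 libraries, against 230.3, 173 and 211 CPM in Control IgG libraries. The library of anti-PD-L1 replicate 1 stood far above the rest, while replicate 2 was near the lowest control. The log2 fold change was 0.49 ± 0.35 (SE, n = 2 against 3), with an interval of -0.31 to 1.29. The value was -0.20 when anti-PD-L1 replicate 1 was left out and 0.98 when replicate 2 was, so its direction rests on replicate 1.

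Acadm, the medium-chain enzyme, went the other way in the same library, with 33.9 and 49.6 CPM in anti-PD-L1 libraries, against 54.5, 42.9 and 46.6 CPM in Control IgG libraries. Its lowest value was anti-PD-L1 replicate 1, and replicate 2 lay inside the control range. The log2 fold change was -0.20 ± 0.29 (SE, n = 2 against 3), and 0.047 without anti-PD-L1 replicate 1. Acadvl, the very-long-chain enzyme of the inner membrane, had 135.1 and 135.5 CPM in anti-PD-L1 libraries, against 122, 132 and 147 CPM in Control IgG libraries. It varied least of the 10 across the 5 libraries, by 1.21-fold from lowest to highest, and its log2 fold change was 0.015 ± 0.23 (SE, n = 2 against 3), with an interval of -0.51 to 0.53. In GENCODE vM21, 1151 exon bases of Acadvl are shared with Dvl2 on the other strand. These libraries do not mark strand, so strand cannot assign reads there to either gene. Etfdh likewise shares 278 exon bases with 4930579G24Rik on the other strand. Hadha shares 75 with Garem2, also on the other strand, a symbol that the count tables do not list. The annotation used for counting is not named, so whether it holds these overlaps is not known.

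Per length, as RPKM (CPM per 1000 bases of the principal transcript), Acadl made up 72.4% and 51.8% of the summed level of the 3 dehydrogenases in anti-PD-L1 libraries, and 59.2%, 52.4% and 54.9% in Control IgG libraries. Acadm made up 5.80% and 13.5% in anti-PD-L1 libraries and 13.1%, 12.1% and 11.3% in Control IgG libraries. Acadl counts were 11.7 and 3.60 times those of Acadm in anti-PD-L1 libraries and 4.22, 4.04 and 4.53 times in Control IgG libraries. The balance thus differed more between the 2 anti-PD-L1 libraries than among the 3 controls.

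The mitochondrial trifunctional protein carries out the remaining steps for long chains. Hadha, its subunit with hydratase and hydroxyacyl-CoA dehydrogenase activity, had 198 and 157 CPM in anti-PD-L1 libraries, against 167, 165 and 205 CPM in Control IgG libraries. Hadhb, its thiolase subunit, had 251 and 174 CPM in anti-PD-L1 libraries, against 261, 173 and 169.5 CPM in Control IgG libraries. Groups overlapped for both, with log2 fold changes of -0.0096 ± 0.24 and 0.079 ± 0.30 (SE, n = 2 against 3). Their starts lie on either side of the shared stretch shown above, and their ratio varied between libraries. Hadhb had 1.26 and 1.11 counts per Hadha count in anti-PD-L1 libraries and 1.56, 1.05 and 0.828 in Control IgG libraries, so the widest difference was between 2 controls.

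Acaa2, the mitochondrial thiolase for shorter chains, had 171 and 120.4 CPM in anti-PD-L1 libraries, against 165, 127 and 128 CPM in Control IgG libraries. Its higher values were in the libraries numbered 1 of both groups, as for Hadhb, and its log2 fold change was 0.055 ± 0.26 (SE, n = 2 against 3). Etfdh, the oxidoreductase that passes electrons of the dehydrogenases to ubiquinone, had 71.5 and 55.4 CPM in anti-PD-L1 libraries, against 100.5, 50.8 and 70.7 CPM in Control IgG libraries. Controls alone spanned 1.98-fold, and the anti-PD-L1 libraries lay between them. The log2 fold change was -0.22 ± 0.33 (SE, n = 2 against 3), and 0.064 without Control IgG replicate 1.

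**Figure D3:**
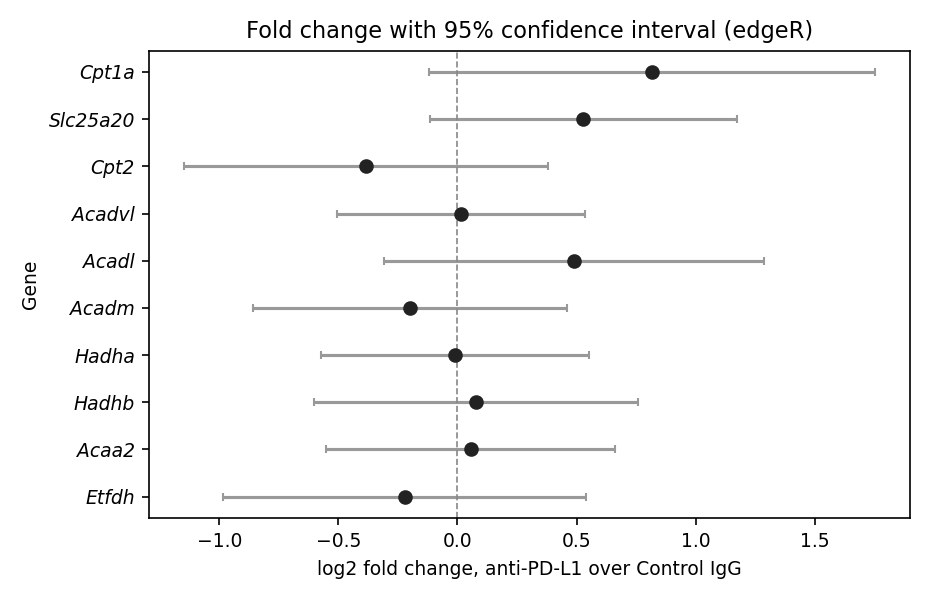
log2 fold change of each gene, anti-PD-L1 over Control IgG, as points with the 95% confidence interval of edgeR's test as bars. All 10 intervals include 0, and the widest reaches from -0.12 to 1.75 for Cpt1a.

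The order of levels per length was led by Acadl, at 124 ± 47.9 RPKM, then Hadhb at 100.3 ± 22.5, Acaa2 at 94.0 ± 15.6 and Acadvl at 62.0 ± 4.15 RPKM (SD over all 5 libraries). Below came Hadha at 44.4 ± 5.39, Etfdh at 29.4 ± 8.19, Slc25a20 at 28.1 ± 7.62, Acadm at 22.2 ± 3.79, Cpt1a at 13.5 ± 6.34 and Cpt2 at 8.90 ± 1.73 RPKM. Ranges of neighbours did not overlap between Acaa2 and Acadvl and between Acadvl and Hadha, and overlapped for the other 7 neighbouring pairs. The shuttle genes were thus in the lower part of the order, with Cpt1a and Cpt2 last. By group mean, Slc25a20 stood above Etfdh in anti-PD-L1 libraries, at 34.5 against 26.7 RPKM, and below it in Control IgG libraries, at 23.9 against 31.1 RPKM. The level of Acadvl is divided by its whole transcript, with no correction for the exon bases shared with Dvl2, which may lower its place and its share of the dehydrogenases. With all annotated exons as the length, Acadl remained first, Hadhb became the fourth, Cpt2 the ninth and Cpt1a the last. Of the other carnitine palmitoyltransferase 1 genes, the muscle form Cpt1b and the brain form Cpt1c had at most 1 count in any library, against 293 to 1074 for Cpt1a.

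Read by library, 8 of the 10 genes were higher than the Control IgG mean in the anti-PD-L1 library numbered 1 and 4 in that numbered 2, against 6, 2 and 6 in Control IgG replicates 1, 2 and 3. Their median log2 deviation was 0.23 and -0.14 in the same anti-PD-L1 libraries, and 0.18, -0.14 and 0.034 in Control IgG replicates 1, 2 and 3. The same over all tested genes was -0.041 and 0.044 in anti-PD-L1 libraries and -0.026, 0.0097 and 0.027 in Control IgG libraries. Anti-PD-L1 replicate 1 held the highest value for 4 genes (Cpt1a, Slc25a20, Acadl and Acaa2) and the lowest for 2 (Cpt2 and Acadm), while anti-PD-L1 replicate 2 held the highest for none and the lowest for 2 (Hadha and Acaa2). Anti-PD-L1 replicate 1 is also 1 of the 2 libraries with fewer detected genes, and the part of that in these values was not tested.

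Around these genes, 87 further genes of fatty acid handling were read in 7 lists, of which 68 were tested. Above 0 were 35 and below 0 were 33, with a median log2 fold change of 0.0026. Over all genes 0 passed the adjusted threshold, and at an unadjusted edgeR p under 0.05 stood Plin2 and Acad12, 2 of the 68, against 2.13% of all tested genes. The 2 anti-PD-L1 values exceeded all controls for 7 of the 68 and were lower than all for 5, against 7.74% and 9.58% of all tested genes. Fatty acid uptake held 3 and 1 of these, other mitochondrial oxidation 0 and 2, peroxisomal oxidation 1 and 1, and regulators 0 and 1. Lipid droplets and lipolysis held 2 and 0, other PPAR targets 1 and 0, and carnitine supply 0 and 0.

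**Figure D4:**
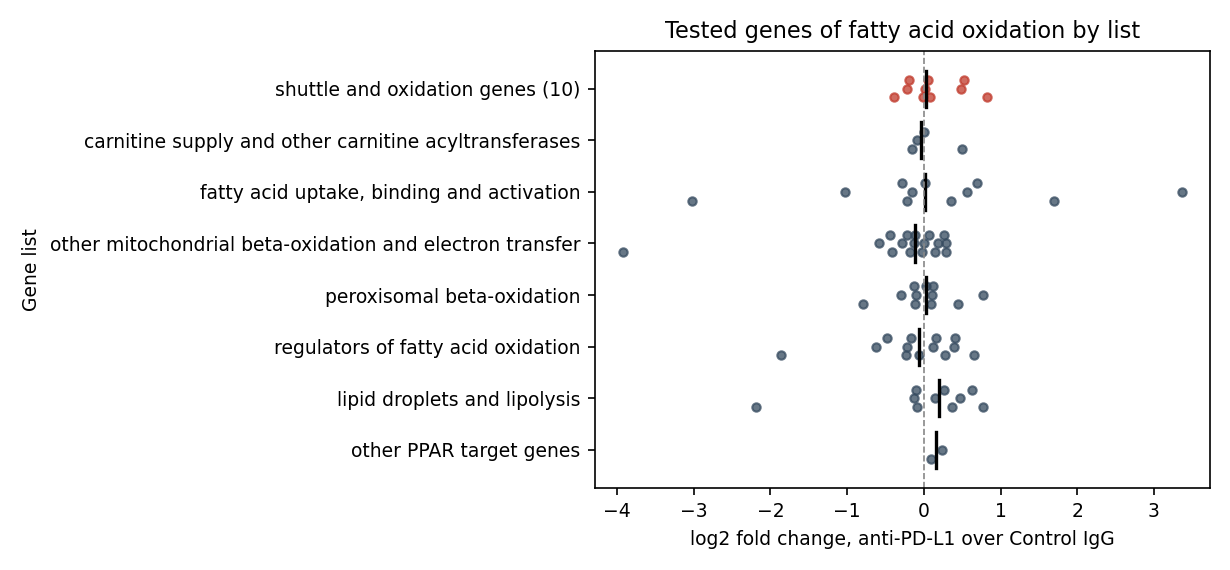
log2 fold change, anti-PD-L1 over Control IgG, of each tested gene (points) by list, with the list median as a black bar. List medians run from -0.11 to 0.20, and the points farthest from 0, such as Slc27a3 and Acad12, belong to genes with few counts.

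Carnitine supply had 4 of 9 genes tested, 2 above and 2 below 0. Crot, the peroxisomal carnitine octanoyltransferase, had 99.8 and 44.7 CPM in anti-PD-L1 libraries, against 66.9, 38.3 and 48.7 CPM in Control IgG libraries. Aldh9a1, a dehydrogenase of carnitine synthesis, had a log2 fold change of -0.15 ± 0.28 (SE). Bbox1, the last hydroxylase of that synthesis, had 0 counts in every library, which at a floor of 3 counts allows up to 0.234 to 0.300 CPM by library total.

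For fatty acid uptake, binding and activation 11 of 13 genes were tested, 6 above and 5 below 0, with a median of 0.012. The genes of smallest p were Slc27a3, a fatty acid transport protein, with 17 and 13 counts in anti-PD-L1 libraries and 0, 2 and 2 in Control IgG libraries, and Acsl3, an acyl-CoA synthetase, with 0 and 7 counts in anti-PD-L1 libraries and 9, 48 and 20 in Control IgG libraries. These counts are low, and their log2 fold changes of 3.36 ± 1.48 and -3.03 ± 1.55 (SE) had intervals that include 0.

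Other mitochondrial oxidation genes had 7 of 17 above and 10 below 0, with a median of -0.11. Both anti-PD-L1 libraries were below all controls for 2 of the 17, against 9.58% of all tested genes. Acad9, an acyl-CoA dehydrogenase that also assembles respiratory complex I, had 37.4 and 57.7 CPM in anti-PD-L1 libraries, against 89.5, 64.9 and 60.3 CPM in Control IgG libraries, a log2 fold change of -0.59 ± 0.31 (SE). Acad12 had 0 and 2 counts in anti-PD-L1 libraries and 14, 21 and 11 in Control IgG libraries. The short-chain dehydrogenase gene Acads had 0.29 ± 0.30 and the hydroxyacyl-CoA dehydrogenase gene Hadh -0.22 ± 0.26 (log2 fold change ± SE). Etfa and Etfb, the subunits of the flavoprotein that brings electrons to ETFDH, had -0.11 ± 0.32 and 0.29 ± 0.26.

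Peroxisomal oxidation had 6 of 11 tested genes above and 5 below 0, with a median of 0.028. Pecr, a peroxisomal enoyl-CoA reductase, had 9.27 and 11.3 CPM in anti-PD-L1 libraries, against 19.4, 17.9 and 16.0 CPM in Control IgG libraries, a log2 fold change of -0.79 ± 0.35 (SE). Both anti-PD-L1 libraries were below all controls for Pecr, as for 9.58% of all tested genes.

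Regulators had 6 of 13 tested genes above and 7 below 0, with a median of -0.064. Mlycd, which degrades malonyl-CoA, had 26.3 and 13.4 CPM in anti-PD-L1 libraries, against 9.38, 17.4 and 11.2 CPM in Control IgG libraries. Acaca, which makes malonyl-CoA, had 12.7 and 29.0 CPM in anti-PD-L1 libraries, against 25.5, 33.9 and 28.2 CPM in Control IgG libraries. For each of this pair anti-PD-L1 replicate 1 stood outside the controls and replicate 2 inside. Ppara, the receptor that drives oxidation genes in liver, had at most 1 count in any library, Acacb, the mitochondrial form of the carboxylase, at most 7, and the coactivator Ppargc1a 0 and 10 counts in anti-PD-L1 libraries and 0, 44 and 3 in Control IgG libraries.

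Lipid droplet and lipolysis genes had 6 of 10 above and 4 below 0, with a median of 0.20. Both anti-PD-L1 libraries were above all controls for 2 of the 10, against 7.74% of all tested genes. Plin2, a droplet coat protein, had 89.4 and 61.6 CPM in anti-PD-L1 libraries, against 54.2, 43.3 and 49.2 CPM in Control IgG libraries, a log2 fold change of 0.63 ± 0.27 (SE) with an unadjusted edgeR p of 0.0493. Dgat1, which makes triglyceride, had 46.5 and 77.8 CPM in anti-PD-L1 libraries, against 25.9, 41.0 and 42.3 CPM in Control IgG libraries, a log2 fold change of 0.77 ± 0.34 (SE). Of the 6 other PPAR target genes only Ucp2 and Angptl4 were tested, at 0.23 ± 0.22 and 0.092 ± 0.34, and Pdk4 and Acot1 had 0 counts in every library.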

How the data were processed

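RNA was sequenced from 2 anti-PD-L1 and 3 Control IgG libraries of OT-I CD8+ T cells sorted from tumors. Per the labels' protocols, poly(A) RNA of 5000 to 30000 sorted cells was amplified by Smart-seq2 with 8 cycles and tagmented libraries by 12 cycles. This marks neither strand nor molecule, so floors from counts cover counting error only. The intervals of the edgeR fit also take in the spread between libraries. The authors deposited read counts for each gene symbol as whole numbers, without normalization. TopHat, HTSeq and the build mm10 are named, per the submitters' processing notes. Not given in the sources used here are versions, annotation and strand setting. The 5 counter lines per file were left out. Reads without a feature were 7.46% to 15.2% and ambiguous reads 1.38% to 1.51% of the counts. No 2 libraries were copies, since the chi-square per degree of freedom of each pair was 19.2 or more.

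Groups and replicate numbers came from the labels. Genes were tested in edgeR 4.0.16 (R 4.3.3), by its two-sided quasi-likelihood F-test after TMM normalization and filterByExpr (minimum count 10, minimum total 15), which kept 11299 genes, and p-values were adjusted by Benjamini-Hochberg over all of them at 0.05. Standard errors are the log2 fold change divided by the square root of F. Deviations used log2 CPM with a prior count of 2. The fit was tested on simulated counts. RPKM used the longest APPRIS principal transcript of GENCODE vM21 (GRCm38, the assembly mm10 denotes). DESeq2 1.42.0 and other normalizations, filters, a replicate block and left-out libraries were alternatives. The 10 genes and all lists were chosen with earlier results of these data known. Of each pathway list the 2 genes of smallest p are named, with Cpt1b, Cpt1c, Acads, Hadh, Etfa, Etfb, Ppara, Ppargc1a and Acacb always, and of each marker list the 2 of highest mean CPM. The values of 1 gene that this rule names were left out of the text. Ly6g and Hbb-bt had no matching symbol, and Bbox1, Pdk4 and Acot1 were named after their counts were seen. No correlation across libraries was computed, since 5 are under the minimum of 6.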

Additional observations from a re-analysis of the deposited data

How the results depend on the processing

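None of the 10 genes passed an adjusted p of 0.05 under any of the 11 alternatives, where the smallest adjusted p of any of them was 0.398. Cpt1a, Slc25a20 and Cpt2 kept their direction in all 11, and the other 7 changed sign in at least 1, in 22 of 110 values in all. Over all genes, DESeq2 called 4 genes higher, edgeR without a low-count filter 5, and edgeR without both libraries numbered 1 called 1, against 0, and none of these was among the 10. With 1 library left out the median of the 10 genes ran from -0.15 to 0.24, and leaving out an anti-PD-L1 library assumes that the lone one varies like the controls. In those fits Acadvl ran from -0.048 to 0.088, Acadl from -0.20 to 0.98, Acadm from -0.48 to 0.047, Hadha from -0.19 to 0.17, Hadhb from -0.21 to 0.35, Acaa2 from -0.22 to 0.31 and Etfdh from -0.43 to 0.064. Without both libraries numbered 1, the log2 fold change of Cpt1a was 0.088, against 0.82 with all libraries, Slc25a20 was 0.32, Cpt2 -0.15, Acadvl -0.060, Acadl -0.12, Acadm 0.14 and Acaa2 -0.10. Hadha was 0.0095 with RLE size factors and 0.0093 in DESeq2, and Acadvl was -0.024 with library totals only. Replicate numbers 1 and 2 occur in both groups, and the labels do not say that they pair libraries. With the replicate number as a block, 0 genes passed, the median of the 10 was 0.037, Cpt1a was 1.17 at an edgeR adjusted p of 0.819 (unadjusted 0.0214), Hadha was 0.089, Hadhb -0.024 and Acaa2 -0.015. Deviations from the group means correlated across genes at 0.33 for the libraries numbered 1 and 0.37 for those numbered 2. With only 2 anti-PD-L1 libraries, their deviations mirror each other. These 2 values are therefore not separate and cannot decide whether the numbers pair libraries. Anti-PD-L1 replicate 1 gave -0.37 and -0.16 with Control IgG replicates 2 and 3. Anti-PD-L1 replicate 2 gave -0.33 and 0.16 with Control IgG replicates 1 and 3. The cause of the changes between settings was not tested. With 2 libraries in 1 group, standard errors of log2 fold changes had a median of 0.38 over tested genes, which limits what could be called.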
